A study of Mus musculus with 12 samples.

Results

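The genes described here are 37 mouse genes that detect DNA double-strand breaks, halt the cell cycle or rejoin the broken ends. They were chosen by name, with earlier results of these data known. By role, 14 act in damage sensing and checkpoint signalling, 12 in homologous recombination, 8 in end joining and 3 in the Fanconi anaemia pathway. All 37 were found among the 56884 genes of the count files, and all 37 were among the 17757 genes that passed the filter on low counts. Bulk RNA was sequenced from 12 mouse tumour samples labelled as TS/A cells, a mammary carcinoma line, together with cancer-associated fibroblasts, all of wild-type genotype. There were 4 groups of 3 libraries. The control group had no treatment in the sample labels and is called vehicle in the study design. The second group received radiotherapy (RT), the third received muFAP-4-1BBL (FAP41BBL), a murine 4-1BB agonist targeted to fibroblast activation protein, and the fourth received both (RT_FAP41BBL). The labels give no radiation dose, no time of sampling and no link from a library to an animal, and a p-value here reflects variation among libraries, part of which may be technical. The question put by the design was how gene expression in the tumour differed between these treatments.

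A double-strand break is bound by the MRN complex of MRE11, RAD50 and NBN, which activates the kinase ATM, while single-stranded DNA at resected ends activates ATR through its partner ATRIP. ATM marks the surrounding chromatin by phosphorylating the histone variant H2AX, and MDC1, RNF8, RNF168 and 53BP1 then gather on it. CHK1, CHK2 and WEE1 hold the cell cycle, and p53, a target of ATM and CHK2, turns on genes such as Cdkn1a. Ends are rejoined directly by the Ku proteins, DNA-PKcs and ligase IV, or repaired by copying the sister chromatid, with BRCA1, BRCA2 and their partners. Much of this response works through phosphorylation and recruitment of proteins that are already present, which messenger RNA levels do not measure.

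Library totals ran from 34076477 to 42067481 counts, and the lowest count of any of the 37 genes in any library was 119, for Rad51b. Levels are given as CPM (counts scaled to library size) with TMM scaling. Of 13 epithelial markers, Krt8 averaged 309.7 CPM and made up most of a summed level of 334.4 to 594.4 CPM, while Epcam averaged 2.39 CPM, 7 of the 13 stayed under 10 CPM in every library and 4 were at 0 in at least 1 library. Fibroblast markers were present (Col1a1 2619 CPM and Fap 10.1 CPM on average), and no gene of the marker lists was at 0 in every library. The summed level of 21 skeletal muscle genes was 7602 to 16930 CPM in the 3 RT libraries and 254.4 to 2703 CPM in the other 9. The part of muscle in the RT results cannot be told apart from RT by the covariate fit given below. In bulk RNA, fewer cells of a type and less RNA per cell cannot be told apart. Cdkn1a, the p53 target that encodes the cell cycle inhibitor p21, was 41.9 ± 5.29 CPM in control (SD, n = 3), 134.8 ± 19.6 CPM after RT, 59.0 ± 3.12 CPM with FAP41BBL and 136.9 ± 20.4 CPM with both.

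Of the 37 repair and checkpoint genes, 2 rose after radiotherapy alone and none fell. They were Nbn, a subunit of the MRN break sensor, and Fanca, a subunit of the Fanconi anaemia core complex. Among all 17757 genes tested, 6.57% rose and 3.05% fell in the same comparison, so the members' 5.41% was not above the background. The median log2 fold change of the 37 was 0.015 against -0.002 over all genes, and their range was -0.441 to 0.519. A rise or a fall here means an adjusted p under 0.05 in edgeR's quasi-likelihood test with Benjamini-Hochberg adjustment over all genes tested. The heat map of all 37 genes shows how far the 3 RT libraries lay from each other.

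**Figure D1:**
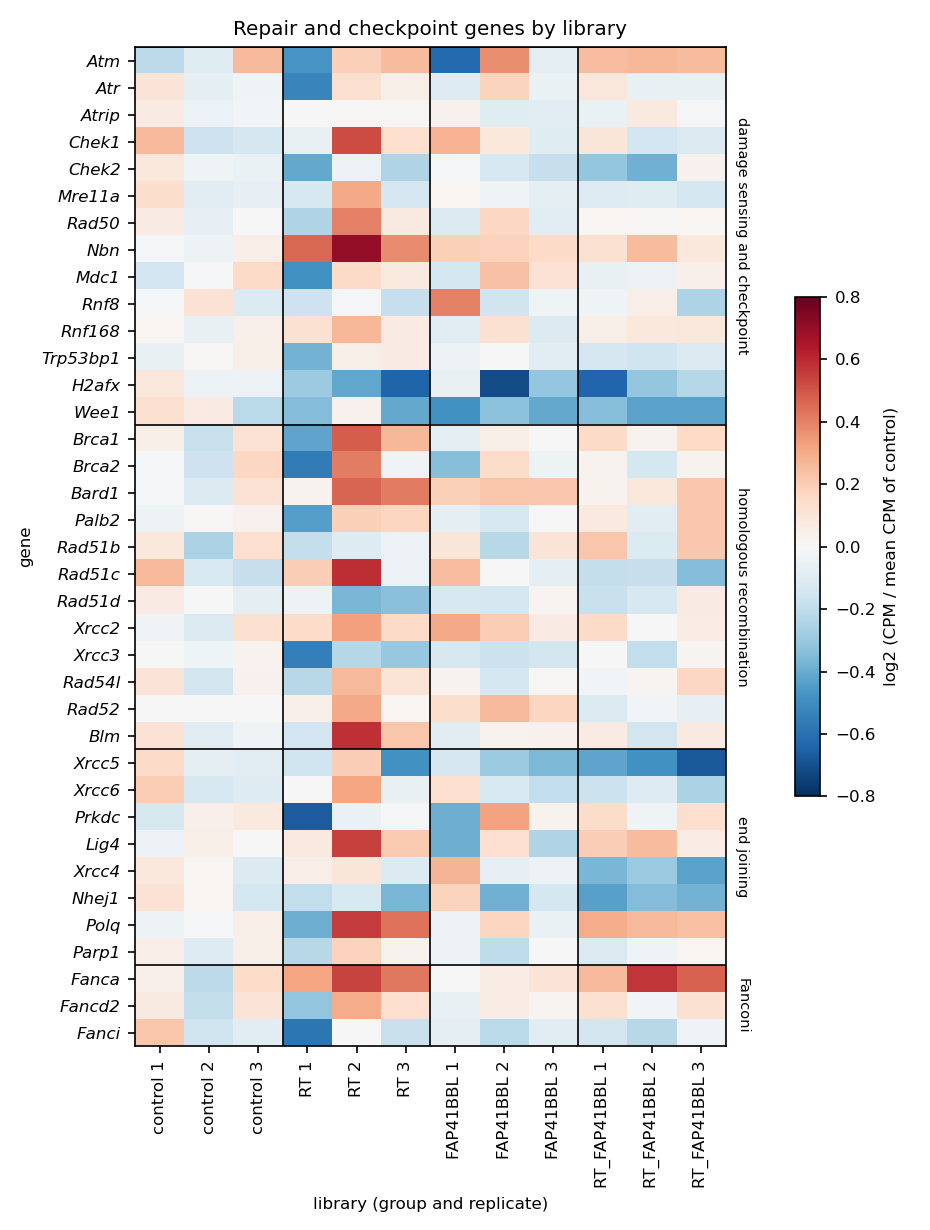
Level of each of the 37 genes (vertical axis, grouped by role) in each of the 12 libraries (horizontal axis), as the log2 ratio of its CPM to the mean CPM of the control group. RT replicate 2 is mostly red and RT replicate 1 mostly blue, while the Nbn row is red in all 3 RT libraries and the Fanca row is red in all 6 irradiated libraries.

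Levels per kilobase of exon placed H2afx, a short histone gene, highest at 83.0 RPKM (CPM per kilobase of exon) over all libraries. Parp1, whose product binds nicks and breaks and builds poly(ADP-ribose), followed at 30.7 RPKM. The Ku subunit genes Xrcc5 and Xrcc6 stood at 16.9 and 13.8 RPKM, and the MRN genes Rad50, Nbn and Mre11a at 12.9, 10.9 and 9.46 RPKM. The lowest were Rnf8, the ubiquitin ligase that opens the chromatin response, at 0.544 RPKM and the homologous recombination gene Rad51b at 1.07 RPKM. The length used is that of all annotated exons of a gene, which lowers the value of genes with long exons that are rarely used.

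Nbn encodes nibrin, the subunit that brings MRE11 and RAD50 to ATM. In the build of the counts, GRCm39, the gene lies at chr4:15957925-15992589 on the plus strand. Its level was 23.4, 23.0 and 24.5 CPM in the control libraries and 32.4, 38.4 and 30.6 CPM in the RT libraries. It was 26.9, 26.8 and 26.2 CPM with FAP41BBL and 25.7, 28.1 and 25.1 CPM with both treatments. The 3 RT libraries were thus the highest of the 12, and each of the 9 treated libraries was above each control library. RT raised Nbn by 0.52 ± 0.10 on the log2 scale (SE, 1.43-fold, adjusted p = 0.00669, edgeR). With both treatments Nbn was lower than with RT alone, by -0.36 ± 0.10 (adjusted p = 0.0486), and the difference from control was 0.16 ± 0.10 (adjusted p = 0.374). With FAP41BBL alone the difference from control was 0.18 ± 0.10 (adjusted p = 0.999). The interaction, which asks whether the effect of RT differed with the agonist, was -0.54 ± 0.14 and did not pass the test over all genes (adjusted p = 0.117). For the other MRN subunit genes the difference from control after RT was 0.10 for Rad50 (95% interval -0.20 to 0.40) and 0.03 for Mre11a (95% interval -0.22 to 0.28), neither past the test. The call of Nbn after RT held without any 1 of the 6 libraries compared. Its call against RT was lost without RT replicate 1 (-0.39, adjusted p = 0.0664), RT replicate 2 (-0.28, adjusted p = 0.166) or RT_FAP41BBL replicate 1, 2 or 3 (-0.35, -0.41 and -0.33, adjusted p = 0.127, 0.0962 and 0.199).

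Fanca encodes a core subunit of the ubiquitin ligase that activates FANCD2 and FANCI at DNA crosslinks. The gene lies at chr8:123995039-124045315 on the minus strand of GRCm39. Its level was 21.6, 18.2 and 23.3 CPM in the control libraries and 21.0, 21.9 and 22.6 CPM with FAP41BBL. It was 26.2, 30.6 and 28.2 CPM with RT and 25.2, 31.3 and 29.1 CPM with both. Every one of the 6 irradiated libraries was above every one of the 6 others. Fanca rose by 0.43 ± 0.12 on the log2 scale with RT (1.35-fold, adjusted p = 0.0364, edgeR) and by 0.44 ± 0.12 with both treatments (1.36-fold, adjusted p = 0.0372), 2 comparisons that share the control libraries. Averaged over both agonist states, radiotherapy raised it by 0.41 ± 0.08 (adjusted p = 0.00927). Against FAP41BBL alone, the combination differed by 0.39 ± 0.12 and did not pass the test (adjusted p = 0.144, edgeR). The interaction for Fanca was -0.04 ± 0.16 (adjusted p = 0.943, edgeR). The call with RT was lost without control replicate 1 (0.45, adjusted p = 0.0789), control replicate 2 (0.31, adjusted p = 0.173), RT replicate 2 (0.36, adjusted p = 0.123) or RT replicate 3 (0.41, adjusted p = 0.0774). The call with both treatments was lost without control replicate 1 (0.46, adjusted p = 0.0840), control replicate 2 (0.32, adjusted p = 0.181), RT_FAP41BBL replicate 2 (0.37, adjusted p = 0.166) or RT_FAP41BBL replicate 3 (0.43, adjusted p = 0.131). The averaged call held without any 1 of the 12 libraries. The substrates of the complex gave smaller values after RT, 0.06 for Fancd2 and -0.24 for Fanci, neither past the test.

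Since Fanca was the member whose irradiated libraries all lay above all other libraries, its promoter is shown. The sequence is the 250 bases before the RefSeq start of Fanca, chr8:123318577-123318826 on the minus strand of GRCm38.p6, an older build than that of the counts, printed 5′ to 3′ on the strand of the gene with CCAAT boxes in capitals.
Fanca: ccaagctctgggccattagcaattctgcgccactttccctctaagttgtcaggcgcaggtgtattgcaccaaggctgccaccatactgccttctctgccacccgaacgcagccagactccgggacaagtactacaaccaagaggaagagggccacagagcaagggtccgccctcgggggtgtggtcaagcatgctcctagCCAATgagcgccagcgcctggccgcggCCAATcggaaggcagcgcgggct
It holds 2 CCAAT boxes. The CCAAT motif (letters CCAAT, both strands) was present in 51.5% of the 33 RefSeq starts of the members and in 37.4% of all 32851 mouse starts in windows of 300 bases, which reach from 250 bases before each start to 50 after it. The cell cycle homology motif TTTGAA, searched on both strands, was present in 12.1% of the member starts and 17.9% of all starts. Promoters were matched for 29 of the 37 members, and Nbn was among the 8 without one.

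**Figure D2:**
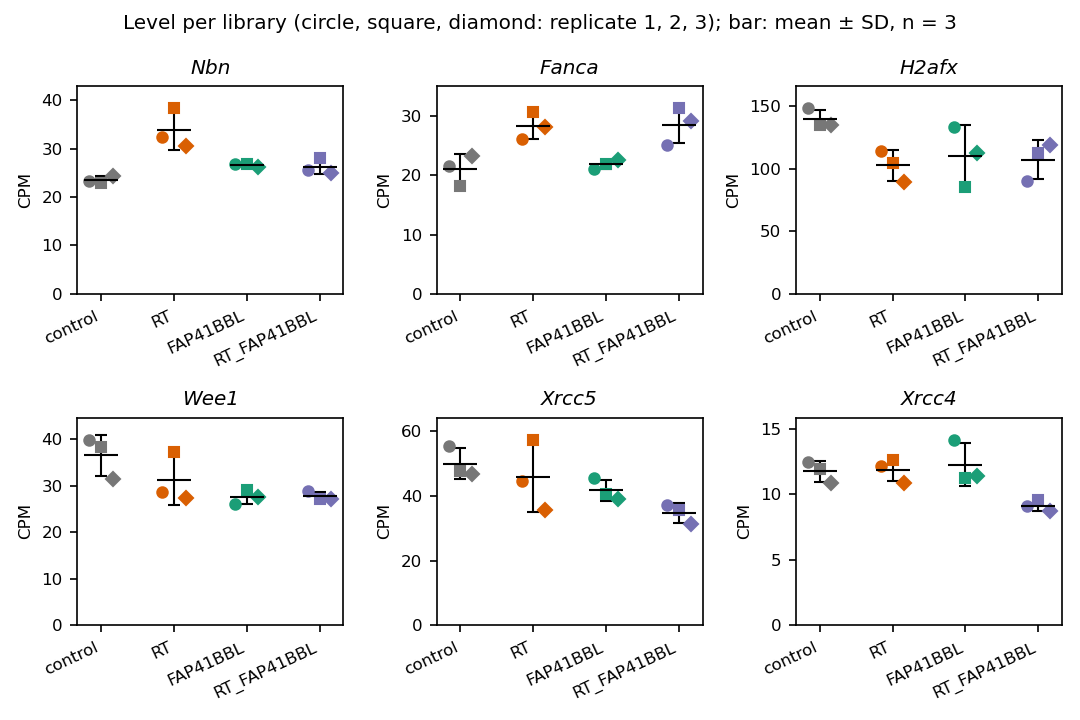
Level in CPM (vertical axis, from 0) of 6 genes in each of the 4 groups (horizontal axis), with 1 point per library and a bar for the mean ± SD of 3 libraries. Nbn was highest in the 3 RT libraries, Fanca was highest in the 6 irradiated libraries, and the controls were the highest libraries for H2afx.

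Among the other sensing and checkpoint genes, none passed the test in any comparison in the main edgeR fit. That fit used all 12 libraries, the filter on low counts, TMM scaling and no added term. H2afx and Wee1 had an unadjusted p under 0.05 in at least 1 comparison, and DESeq2 called Wee1 in RT_FAP41BBL against control. An edgeR fit of only those groups called H2afx (adjusted p = 0.0343) and Wee1 (adjusted p = 0.0222) there. Over all 37 members, the lists below included, 13.5% had such a p after RT, against 24.2% of all genes. The shares were 16.2% against 23.6% for the combination against control, and 10.8% against 23% for the combination against RT. For radiotherapy averaged over both agonist states they were 10.8% against 25.1%. H2afx, which encodes the histone variant H2AX, was 148.3, 134.8 and 135.1 CPM in control and 114.0, 104.7 and 89.3 CPM with RT. It was 133.6, 85.0 and 112.3 CPM with FAP41BBL and 89.97, 112.6 and 119.2 CPM with both. Each of the 9 treated libraries was below each control library. The differences from control were -0.44 ± 0.16 with RT, -0.34 ± 0.16 with FAP41BBL and -0.38 ± 0.16 with both (adjusted p = 0.103, 0.971 and 0.168, edgeR). H2afx had the lowest log2 fold change of the 37 members after RT, short of the threshold. The 3 differences share the control libraries.

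Wee1 encodes the kinase that restrains CDK1 before mitosis. Its level was 39.8, 38.2 and 31.4 CPM in control and 28.7, 37.3 and 27.4 CPM with RT. It was 26.0, 29.01 and 27.4 CPM with FAP41BBL and 28.8, 27.1 and 27.1 CPM with both. The 6 libraries with the agonist were all below the controls, whereas RT overlapped them. Against control the difference was -0.41 ± 0.13 with FAP41BBL (unadjusted p = 0.00687, adjusted p = 0.751, edgeR) and -0.40 ± 0.13 with both (adjusted p = 0.0751). Of the checkpoint kinases, Chek1 was 20.5 ± 3.47 CPM in control and 23.9 ± 4.98 CPM with RT (SD, n = 3). Chek2 was 14.9 ± 0.789 CPM and 12.7 ± 1.61 CPM in the same groups. The apical kinase genes Atm and Atr were 75.6 ± 13.2 and 58.4 ± 3.72 CPM in control and 76.9 ± 19.6 and 54.9 ± 12.6 CPM with RT. Atrip, the partner of ATR, was the steadiest member after RT, at 15.0, 15.1 and 15.1 CPM in the 3 RT libraries and 14.5 to 15.7 CPM in control. Mdc1, the scaffold that reads phosphorylated H2AX, was 72.8 ± 7.68 CPM in control and 70.0 ± 15.7 CPM with RT. Trp53bp1, which encodes 53BP1, was 77.5 ± 2.81 and 73.6 ± 11.99 CPM. Rnf168, the ubiquitin ligase that acts after RNF8, was 41.0 ± 1.43 CPM in control and 45.6 ± 3.29 CPM with RT, with all 3 RT libraries above the controls and no call.

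None of the 12 homologous recombination genes passed the test in any comparison in the edgeR, DESeq2 or limma-voom fits of all libraries. Bard1, Xrcc3, Rad51c and Rad52 had an unadjusted p under 0.05 in at least 1 comparison in edgeR. Some edgeR fits without 1 RT library did call genes of this list. Bard1 and Brca1 are given below, and without RT replicate 3 Rad51c was lower with both treatments than with RT (-0.65, adjusted p = 0.0363). The value farthest above 0 after RT was that of Bard1, the obligate partner of BRCA1, at 0.32 ± 0.12 (adjusted p = 0.113). Bard1 was 23.9, 22.4 and 26.1 CPM in control and 24.6, 33.3 and 32.1 CPM with RT, so RT replicate 1 lay within the control range and the other RT libraries lay above it. Brca1 had the same order of RT libraries, at 36.8, 68.8 and 59.2 CPM against 50.8, 43.6 and 53.3 CPM in control. Brca2, a central gene of homologous recombination, was 14.6, 28.6 and 21.1 CPM with RT and 21.3, 19.1 and 24.1 CPM in control. Palb2, the bridge between BRCA1 and BRCA2, was 8.01, 12.4 and 12.2 CPM with RT and 10.6 to 11.1 CPM in control. In each of these 4 genes RT replicate 1 was the lowest of the 3 RT libraries and RT replicate 2 the highest. The helicase gene Blm was 36.0 ± 9.13 CPM with RT and 30.3 ± 2.28 CPM in control, and Rad54l, whose product remodels DNA during strand exchange, was 30.6 ± 5.03 and 29.3 ± 2.53 CPM.

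Xrcc2, Xrcc3, Rad51b, Rad51c and Rad51d, which act in homologous recombination, had values on both sides of 0 after RT, and none passed the test. Xrcc3 was 7.02, 6.85 and 7.14 CPM in control and 4.78, 5.97 and 5.68 CPM with RT, all below control, a difference of -0.35 ± 0.14 (adjusted p = 0.134, edgeR). Xrcc2 was 11.4 ± 0.973 CPM in control and 13.2 ± 0.984 CPM with RT, with no overlap and no call. Rad51c was 9.91, 13.0 and 8.35 CPM with RT and 7.57, 7.61 and 6.78 CPM with both, a difference of -0.51 ± 0.18 between those groups (adjusted p = 0.117). Rad51d was 19.6 ± 0.935 and 16.6 ± 2.14 CPM in control and RT, and Rad51b 4.02 ± 0.566 and 3.71 ± 0.188 CPM. Rad52, an annealing protein gene, was 15.3 ± 0.651 CPM with FAP41BBL and 12.8 ± 0.397 CPM with both, with no overlap (-0.26 ± 0.11, adjusted p = 0.314).

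None of the 8 end joining genes passed the test in the main edgeR fit either. Xrcc5, Xrcc4, Nhej1 and Lig4 had an unadjusted p under 0.05 in at least 1 comparison, and DESeq2 called Xrcc5 and Xrcc4. The lowest value with both treatments was that of Xrcc5, which encodes Ku80, the larger subunit of the ring that first grips a broken end. Xrcc5 was 55.4, 47.6 and 46.8 CPM in control and 44.7, 57.3 and 35.6 CPM with RT. It was 45.4, 40.7 and 38.9 CPM with FAP41BBL and 37.3, 35.6 and 31.3 CPM with both. The combination and the FAP41BBL libraries were below all controls, and the RT libraries overlapped them. The difference between the combination and control was -0.52 ± 0.15 (adjusted p = 0.0525, edgeR), just outside the threshold, and it passed in 6 of the 9 other fits that kept every library of the groups compared. It passed in none of the 6 fits without 1 of those libraries (adjusted p 0.0875 to 0.201). Xrcc6, for Ku70, was 63.0 ± 8.39 CPM in control and 55.8 ± 2.85 CPM with both.

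Xrcc4 and Nhej1, whose products align the ends for ligase IV, also had values below 0 with both treatments. Xrcc4 was 12.5, 11.9 and 10.9 CPM in control, 12.2, 12.6 and 10.9 CPM with RT, and 14.2, 11.2 and 11.4 CPM with FAP41BBL. With both treatments it was 9.10, 9.56 and 8.74 CPM, below each of the 9 other libraries. The difference was -0.36 ± 0.13 from control, -0.38 ± 0.13 from RT and -0.42 ± 0.13 from FAP41BBL (adjusted p = 0.105, 0.0990 and 0.145, edgeR). Nhej1 was 6.31 ± 0.558 CPM in control and 4.82 ± 0.148 CPM with both, with no overlap (-0.39 ± 0.17, adjusted p = 0.188). Lig4, the ligase gene, had a positive value instead, 12.3 ± 2.11 CPM with RT and 11.3 ± 0.762 CPM with both against 10.02 ± 0.346 CPM in control, each group above control without overlap. Averaged over both agonist states its difference was 0.31 ± 0.11 (adjusted p = 0.1104). Prkdc, for DNA-PKcs, was 32.3 ± 2.39 CPM in control and 27.8 ± 6.46 CPM with RT. Polq, the polymerase gene of microhomology-mediated joining, was 12.5, 24.2 and 22.2 CPM with RT and 15.9 to 17.1 CPM in control. Parp1 was 165.7 ± 10.1 CPM in control and 166.3 ± 23.2 CPM with RT.

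**Figure D3:**
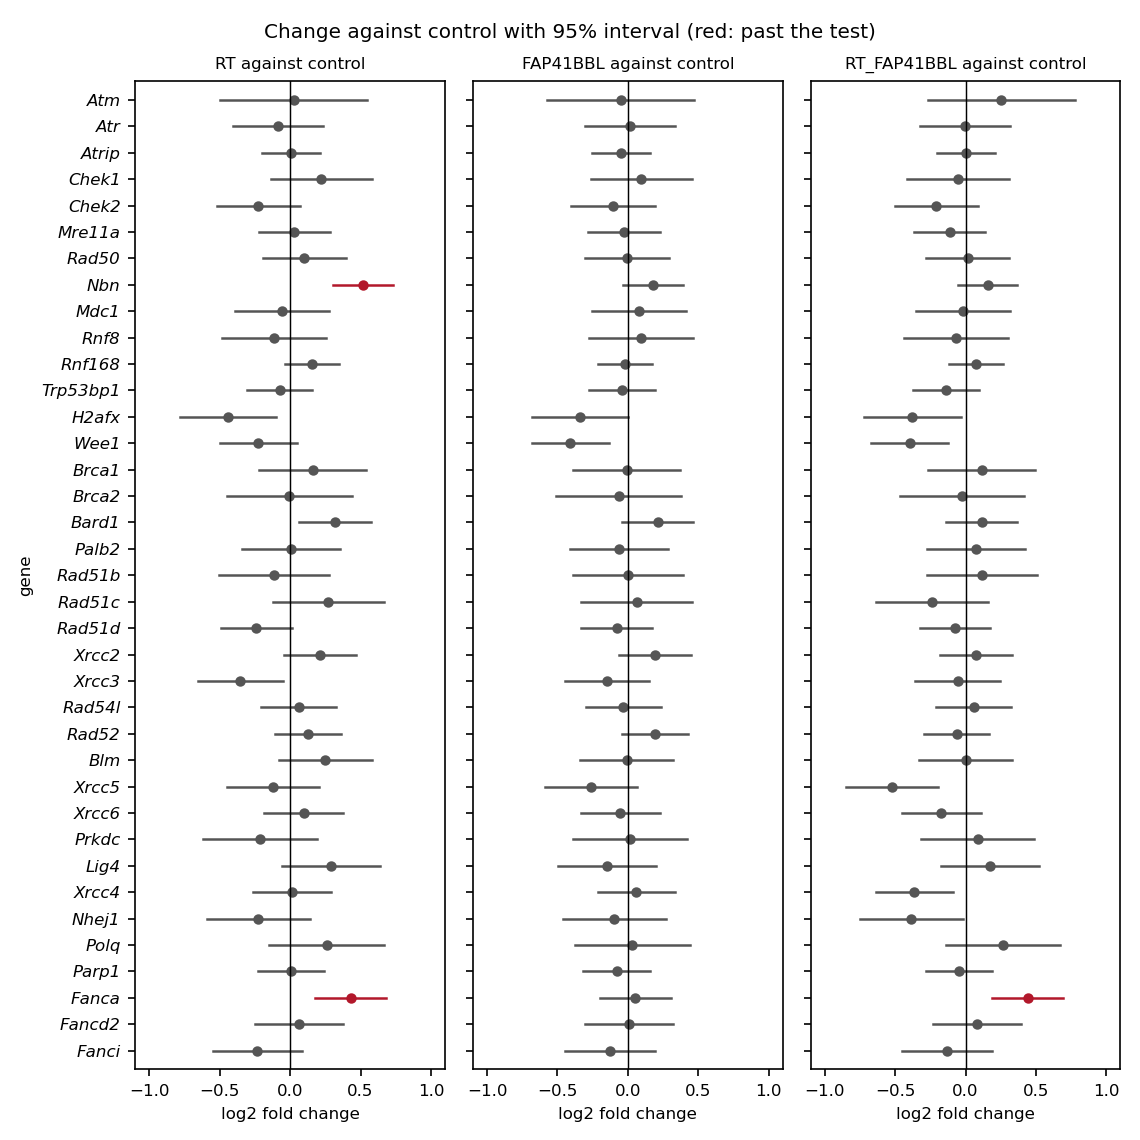
Log2 fold change against control (horizontal axis) with its 95% interval for each of the 37 genes (vertical axis) in the RT, FAP41BBL and RT_FAP41BBL groups. Nbn and Fanca in RT and Fanca in RT_FAP41BBL are red, having passed the test, and no estimate in the 3 panels is larger than 0.523 in size.

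With FAP41BBL alone no member passed the test in edgeR, and the background was 0.00563% of genes, so the comparison called almost nothing anywhere. Wee1 was the 1 member with an unadjusted p under 0.05 (2.7% of the 37 against 5.17% of all genes), and no member passed in DESeq2 or limma-voom. The median log2 fold change of the 37 was -0.02 against 0.009 over all genes. With both treatments 1 member rose (Fanca) and none fell, against backgrounds of 5.59% of genes higher and 2.31% lower. The median was -0.021 against 0.01 over all genes. Immune markers moved with this group: 8 of 15 macrophage and monocyte markers, 3 of 15 T cell markers and 3 of 7 B cell markers tested rose against control, and 8, 5 and 2 genes of the same lists were higher than with RT. The summed macrophage level was 5940 to 7499 CPM with both treatments, 3901 to 4982 CPM in control and 3221 to 5243 CPM with RT. The summed T cell level was 130.4 to 177.1, 74.6 to 121.8 and 49.9 to 94.1 CPM in the same groups, and the B cell level 30.2 to 40.6, 12.6 to 15.4 and 12.3 to 26.1 CPM. With FAP41BBL alone the macrophage level was 4518 to 5408 CPM and the B cell level 15.7 to 20.9 CPM. The T cell level there was 119.1 to 142.7 CPM, which overlapped that of the combination. Between the combination and FAP41BBL alone, 3 macrophage markers, 1 B cell marker and no T cell marker passed the test. The part of the immune markers in the values of Fanca, Nbn, Xrcc5 and Xrcc4 in the combination was not tested. For the combination against RT, 1 member was lower (Nbn) and none higher, against backgrounds of 2.4% lower and 3.36% higher. For the combination against FAP41BBL, no member passed in edgeR and 1 passed in DESeq2 (Xrcc4), against an edgeR background of 0.946%. An unadjusted p under 0.05 was found for 3 members there, 8.11% against 13.5% of all genes. Averaged over both agonist states, radiotherapy raised 2 members (Nbn and Fanca) and lowered none, against backgrounds of 6.51% higher and 3.55% lower. For Nbn this value was 0.25 ± 0.07 (adjusted p = 0.0399), and the call held only in the fits without RT replicate 1 and without RT replicate 3 among the 12 that left out 1 library (adjusted p 0.0351 to 0.121). The interaction passed for no member in the main edgeR fit, with a background of 0.152%, and for 1 in DESeq2 (Nbn). Its unadjusted p was under 0.05 for 6 members, 16.2% against 14.1% of all genes.

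Counted by separation of the groups, 6 members lay wholly above control after RT (Nbn, Rnf168, Xrcc2, Rad52, Lig4 and Fanca), 16.2% of the 37 against 14.9% of all genes. Below control lay 2 (H2afx and Xrcc3), 5.41% against 11.1% of all genes. With FAP41BBL, 3 members lay above (8.11% against 5.7%) and 4 below (10.8% against 5.07%). With both treatments, 5 lay above (13.5% against 20%) and 8 below (21.6% against 18.5%). The 8 below were Mre11a, Trp53bp1, H2afx, Wee1, Rad52, Xrcc5, Xrcc4 and Nhej1. These 3 counts share the control libraries, and none of the shares was tested against the background.

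The size of change that these libraries could show is given by the intervals. The median SE of a member's log2 fold change between 2 groups was 0.144. After RT the 95% interval lay within a 1.5-fold change in either direction for 28 of the 37 genes, and with FAP41BBL for 34. For the combination against control the count was 28, and for radiotherapy averaged over both agonist states it was 36, with Fanca the exception. The interaction was less well measured, with 16 intervals inside that range.

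The 3 RT libraries differed from each other in these genes. The median SD of log2 CPM over the 37 genes was 0.241 in RT, against 0.111 in control, 0.114 with FAP41BBL and 0.087 with both. The RT group had the largest SD of the 4 groups in 25 of the 37 members, against 45.6% of all genes. RT replicate 2 was the highest of the 12 libraries in 19 members and RT replicate 1 the lowest in 16, whereas over all genes these shares were 14% and 15.4%. The mean log2 CPM of the 37 genes was 4.45, 4.85 and 4.64 in the 3 RT libraries and 4.58 to 4.69 in control. Without RT replicate 1, 5 members rose after RT: Nbn, Fanca, Bard1 (0.44 ± 0.10, adjusted p = 0.0153, edgeR), Polq (0.50 ± 0.10, adjusted p = 0.0130) and Brca1 (0.38 ± 0.11, adjusted p = 0.0436). That count was not set against the share of all genes called in the same fit.

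Other measures moved in part with the same libraries. The mean log2 CPM of 32 G1/S and DNA replication genes was highest of all in RT replicate 2, at 6.05, and that of 30 G2/M genes was highest there too, at 6.87. The G2/M score was lowest in RT replicate 1, at 6.23. The G1/S score of that library was 5.72, within the control range of 5.56 to 5.74. Across the 37 members, the deviation of a library from the mean was related to exon length in libraries of every group: Spearman's rho was -0.64, 0.08 and 0.58 in the 3 RT libraries, -0.51 in control replicate 1, -0.48 in FAP41BBL replicate 1 and 0.55 in RT_FAP41BBL replicate 1, given as descriptions across genes that share a library. Over all genes the values for the same libraries lay between -0.23 and 0.13. Adding the G1/S score of each library to the fit gave Nbn 0.41 ± 0.11 (adjusted p = 0.0472, edgeR) and Fanca 0.31 ± 0.13 (adjusted p = 0.194) after RT, and moved the median of the 37 from 0.015 to -0.139. The score holds 3 genes that rose after RT, so the score is not independent of treatment. Adding the muscle score gave Nbn 0.62 ± 0.18 (adjusted p = 0.213, edgeR) and Fanca 0.54 ± 0.21 (adjusted p = 0.350). That score nearly follows the RT group, so this fit cannot tell muscle content and RT apart.

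**Figure D4:**
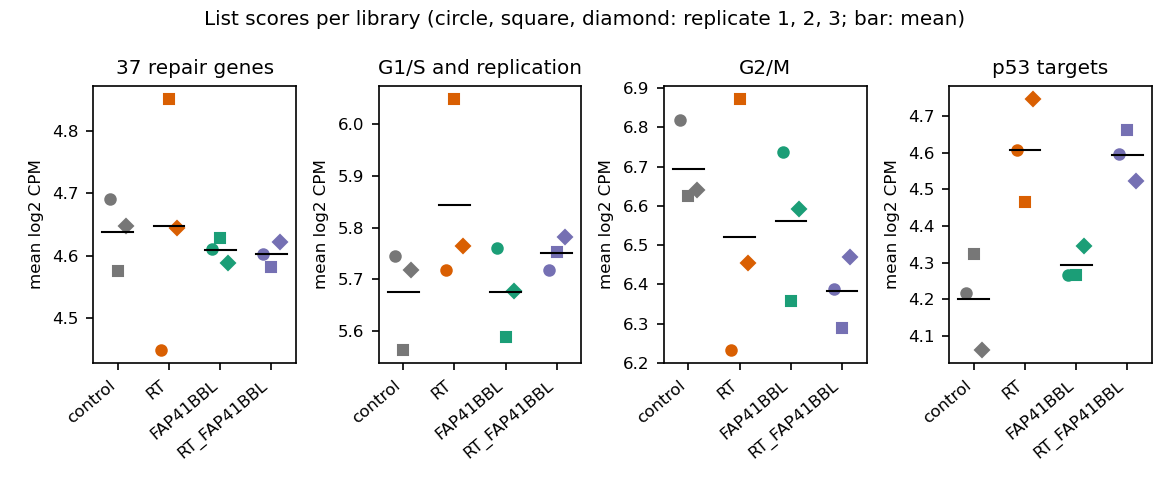
Mean log2 CPM (vertical axis, not from 0) of the 37 repair genes, 32 G1/S and replication genes, 30 G2/M genes and 30 p53 targets in each library of the 4 groups (horizontal axis), with a bar for the group mean. RT replicate 2 is the highest point for the first 3 lists, and the p53 target score is higher in all 6 irradiated libraries than in the 6 others.

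E2F factors drive many genes of S phase, and the promoters were searched for the E2F motif. The letters TTTCCCGC and TTTGGCGC, on both strands, were found in 6 of the 33 member starts, 18.2%, against 1.56% of all 32851 mouse starts. The 6 genes were Chek2, Mdc1, Brca2, Bard1, Rad51c and Xrcc6, and Fanca was not among them. Each window of 30 bases around the match is printed 5′ to 3′ on the strand of its gene, with the match in capitals, from RefSeq on GRCm38.p6.
Chek2: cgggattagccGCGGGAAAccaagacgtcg
Mdc1: tcttcagcctgTTTCCCGCcggtagccgca
Brca2: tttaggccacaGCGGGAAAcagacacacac
Bard1: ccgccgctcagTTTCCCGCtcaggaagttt
Rad51c: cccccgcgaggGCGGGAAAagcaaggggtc
Xrcc6: agggggtggaaGCGGGAAAtgcgagtgggc
The windows lie for Chek2 at chr5:110839820-110839849, Mdc1 at chr17:35841471-35841500, Brca2 at chr5:150522442-150522471, Bard1 at chr1:71103163-71103192, Rad51c at chr11:87404941-87404970, Xrcc6 at chr15:82016312-82016341, on the minus strand for Bard1 and Rad51c and on the plus strand for the others. None of these 6 genes passed the test after RT in the fit of all libraries. The SD of log2 CPM among the RT libraries was 0.484 for Brca2, 0.349 for Mdc1 and 0.321 for Rad51c. It was 0.238 for Bard1, 0.2 for Xrcc6 and 0.181 for Chek2, against a median of 0.241 over all members. A match describes the letters only. For this and the other motifs, the background of all mouse starts was not limited to genes expressed in these libraries.

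A wider set of 94 repair genes was drawn from the same pathways and held none of the 37. After RT, 2 of these genes fell (2.13%) and none rose, against 3.05% of all genes lower and 6.57% higher. Polm, a polymerase of end joining, was 27.5, 25.8 and 25.5 CPM in control and 20.3, 19.6 and 21.3 CPM with RT, without overlap (-0.37 ± 0.09, adjusted p = 0.0250, edgeR). Fan1, a nuclease of crosslink repair, was 8.73, 9.65 and 9.58 CPM in control and 5.68, 6.41 and 7.40 CPM with RT (-0.52 ± 0.15, adjusted p = 0.0469). Polm was the 1 gene of the 94 called for radiotherapy averaged over both agonist states, at -0.26 ± 0.06 (adjusted p = 0.0232, edgeR). Of all genes, 3.55% were lower and 6.51% higher in that comparison. In the same averaged comparison, the Fanconi core gene Faap24 had 0.32 ± 0.10 (adjusted p = 0.0714), Fancc -0.33 ± 0.11 (adjusted p = 0.0838), the resection nuclease gene Exo1 0.32 ± 0.12 (adjusted p = 0.116) and Rpa3, a subunit of the single-strand binding protein, -0.32 ± 0.12 (adjusted p = 0.134). In that averaged comparison the Fanconi genes thus had values on both sides of 0, with Fanca the one that passed.

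For comparison with the repair genes, p53 targets and cell cycle genes were counted in the same libraries. Of 30 p53 targets, 11 rose after RT (36.7% against 6.57% of all genes) and 1 fell, with a median log2 fold change of 0.353. With both treatments 13 rose (43.3% against 5.59%). Of 32 G1/S and replication genes, 3 rose after RT (Mcm10, Ccne1 and Rrm2), 9.38% against 6.57% of all genes, with a median of 0.173. None of the 30 G2/M genes passed after RT in edgeR, where 2 had an unadjusted p under 0.05 (Ccnb2 and Nusap1), with a median of -0.126. With both treatments none of the 30 passed the test against control in the main edgeR fit. In that comparison 27 of the 30 lay below control without overlap, 90% against 18.5% of all genes. The repair genes as a list had a median near 0 in each of these comparisons, with Nbn and Fanca as its members past the test.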

How the data were processed

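Gene counts of 12 libraries were used as the authors deposited them: whole-number read counts per gene from featureCounts 1.6.0, read as reversely stranded pairs over exons of GENCODE release M33 on GRCm39, per the file headers. STAR 2.7.9a and FastQC 0.11.8 are named in the submitters' processing notes. Reads of a stranded polyA library were sequenced, per the labels' protocols. Symbols were matched for 51948 of 56884 gene identifiers (91.3%), and genes with a symbol took 99.04% or more of every library's counts. Genes were kept by filterByExpr (17757 genes), scaled by TMM and tested with edgeR 4.0.16 in R 4.3.3 (quasi-likelihood, robust, 4 groups in one fit, Benjamini-Hochberg adjustment over all genes, threshold 0.05). The total counts per library limit precision, and the common biological coefficient of variation was 0.205. No pair of libraries within a group agreed within sampling noise; pairs across groups were not compared. The text names all members, up to 4 genes with the smallest p for averaged radiotherapy from each wider list, and preset reference genes; other genes were named after their values were seen. Alternatives were other scalings, no filter, DESeq2 1.42.0, limma-voom 3.58.1, a replicate term, 2 covariates, fewer groups and leaving out each library. Scripts were tested on simulated data. The members and lists were chosen with earlier results of these data known. Promoter sequences came from RefSeq, build GRCm38.p6.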

Additional observations from a re-analysis of the deposited data

How the results depend on the processing

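Of the 29 log2 fold changes of members with an unadjusted p under 0.05, none reversed under the alternatives run. Smaller ones did: after RT, 11 of the 37 members changed sign with the G1/S score as a covariate (up to 0.219 in size before, for Chek1) and 6 with the muscle score (up to 0.058, for Mdc1). The number of members past the test after RT (2) became 1 without the filter on low counts, 1 with the G1/S score as a covariate, 1 with only the groups compared and 0 with the muscle score. For RT_FAP41BBL against control (1) it became 2 with RLE size factors, 4 with DESeq2, 0 with the muscle score and 5 with only the groups compared (H2afx, Wee1, Xrcc5, Xrcc4 and Fanca). For RT_FAP41BBL against RT (1) it became 2 with DESeq2 and 0 with library totals, without the filter, with either covariate or with only the groups compared. For RT_FAP41BBL against FAP41BBL and for the interaction (0 each) it became 1 with DESeq2. For averaged radiotherapy (2) it became 1 without the filter and 0 with either covariate. The cause was not tested. Leaving out 1 library at a time gave 1 to 5 members for RT, 0 to 0 for FAP41BBL, 0 to 1 for RT_FAP41BBL against control, 0 to 3 against RT, 0 to 0 against FAP41BBL, 1 to 4 for averaged radiotherapy and 0 to 1 for the interaction. The 5 for RT and the 4 for averaged radiotherapy came without RT replicate 1, and the 3 for RT_FAP41BBL against RT without RT replicate 3. None of these counts was set against the share of all genes called in the same fit.

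Nbn after RT passed in 6 of 6 fits without 1 library (adjusted p 0.00891 to 0.0393) and in 8 of 9 others, and its difference between RT_FAP41BBL and RT in 1 of 6 (0.0165 to 0.199). Fanca after RT passed in 2 of 6 (0.031 to 0.173) and 5 of 9 others, and with both treatments in 6 of 9 others; there the count of 1 without the filter and with the G1/S score was Xrcc5, not Fanca (adjusted p = 0.0644 and 0.051). For averaged radiotherapy Fanca passed in 12 of 12 (0.00909 to 0.0342) but with neither covariate (0.149 with muscle, 0.0569 with G1/S); Nbn for averaged radiotherapy passed in 2 of 12. Same-numbered libraries did not pair: the correlation of their deviations was -0.344 to 0.432 over 18 pairs, with 6 over 0.1. With the replicate block, the count for RT_FAP41BBL against control was 2 (Xrcc5, adjusted p = 0.0279, and Fanca), and the block left the other counts as they were. With 3 libraries a group, the 95% intervals of 9 members reached past a 1.5-fold change after RT.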
